A study of Ovis aries with 49 samples.

Results

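The HOXC cluster is 1 of the 4 clusters of HOX genes, which encode homeodomain transcription factors. Within a cluster the genes lie in the order in which they are used along the body, so that low-numbered genes come on nearer the head and high-numbered genes nearer the tail, and cells of adult connective tissue, fat included, keep much of the HOX pattern of the place where they arose. In humans HOXC4, HOXC5 and HOXC6 can share a first, non-coding exon. The members described here are the probe sets whose gene symbol begins with HOXC. There were 5 among the 10273 probe sets of the deposited table, for HOXC4, HOXC6, HOXC8, HOXC10 and HOXC11, with 1 probe set each, and they are taken below in the order of the cluster, from the head end to the tail end. In the RefSeq gene table of the sheep assembly ARS-UI_Ramb_v3.0, HOXC5, HOXC6, HOXC8, HOXC9, HOXC10, HOXC11, HOXC12 and HOXC13 follow each other without another protein-coding gene between them, and HOXC4 was placed by its position in the human cluster. HOXC5, HOXC9, HOXC12 and HOXC13 were not analysed here.

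Adipose tissue RNA of lambs was hybridised to Affymetrix arrays with human probes, on 25 arrays at 28 days of age and 24 at 7 days, from perirenal, omental, subcutaneous, sternal and epicardial fat, in groups of 5 arrays, with the 7-day subcutaneous group at 4. By the study's methods the lambs were sex-matched twins, with 1 twin of a mother sampled at each age and all depots taken from the same animals. The label titles carry an unexplained letter C and do not state the mother's diet, and a description shared by all labels names an older age range than the age field and titles that were used here. Replicates are named by letter, H to O at 28 days and A to G at 7 days, after numbers in the titles that the labels do not define as animals. Arrays were fitted as independent samples, and a p-value therefore reflects the spread among the arrays of a group, which may be technical in part, with no account of litter or animal. In bulk tissue, fewer cells of a type and less RNA per cell cannot be told apart.

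Values are log2 GCRMA values, a background-corrected signal per probe set, and run from 2.49, the lowest value of the table, to 14.04. Of all values 82.7% were below 4, and probe sets at the bottom of the range often carry exactly equal values in several arrays, so a difference against a group at the bottom is a lower limit. Sheep RNA on human probes can bind weakly, so a low value does not show that a gene is silent, and the values of different probe sets are not compared with each other. The check of the tissue against adipocyte markers showed this limit: of 7 measured markers only DGAT2, the last enzyme of triglyceride synthesis, was above 4 in all 49 arrays (7.43 to 11.1), LPL passed 4 in 1 array, and FABP4, CIDEC, CIDEA, LIPE and PPARG stayed below 4 in every depot. The epicardial arrays carried heart muscle RNA, with a mean of 7 heart muscle markers of 3.11 to 8.77 at 28 days and 6.72 to 9.05 at 7 days. Outside epicardial fat, the muscle creatine kinase gene CKM passed 4 in 5 arrays at 28 days (sternal J, N and O, subcutaneous J and M) and in 4 at 7 days (sternal D, subcutaneous A, E and G), and the sternal arrays at 28 days were lower over all probe sets (mean 3.28, with 14.2% of values at the lowest value) than the other depots at that age (3.40 to 3.42, with 10.3% to 10.6%).

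The first question was whether the HOXC genes differed between the depots. Of the 5 members, 4 differed over the depots at 28 days (HOXC4, HOXC6, HOXC8 and HOXC10), where 20.0% of all probe sets did, and 3 at 7 days (HOXC4, HOXC6 and HOXC8), where 8.16% did, by limma's F test with p-values adjusted after Benjamini and Hochberg and a threshold of 0.05. HOXC6 ranked 2 of 10273 probe sets by this test at both ages, with adjusted p = 4.9e-14 at 28 days and 1.7e-10 at 7 days. For HOXC4 the adjusted p was 1.1e-05 at 28 days and 8.0e-05 at 7 days. HOXC11 did not pass at either age (adjusted p = 0.26 at 28 days and 0.52 at 7 days).

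**Figure D1:**
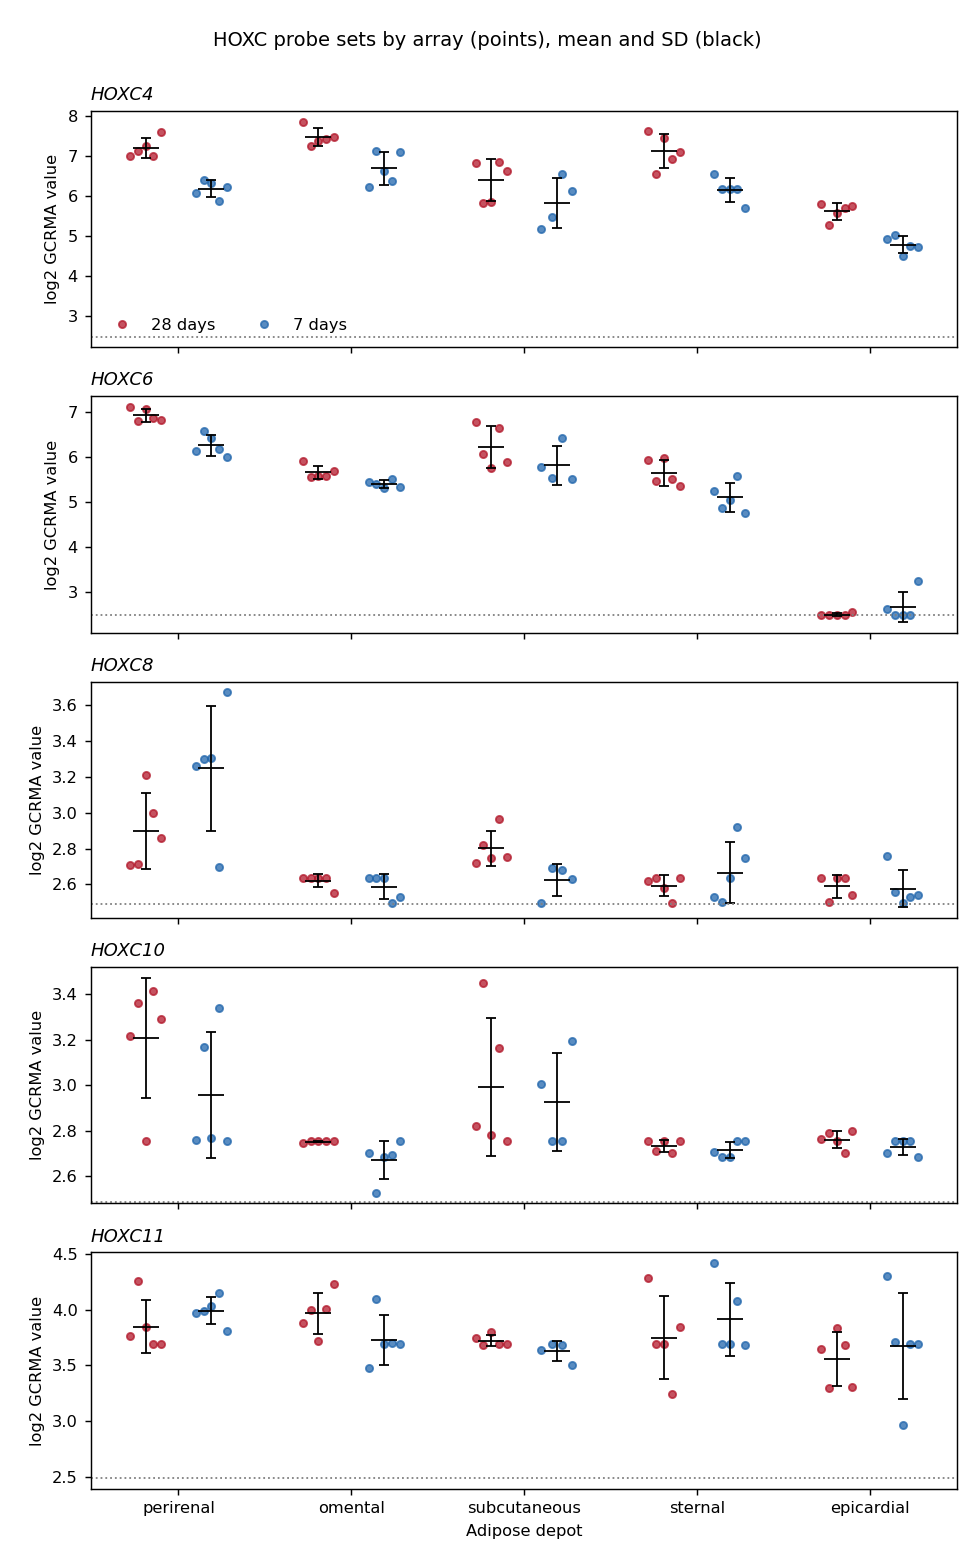
Each panel plots 1 HOXC probe set, with depots along the x axis and the log2 GCRMA value on a y axis of its own scale, 28 days (red) left of 7 days (blue), 1 point per array; black bars are the mean and SD, and the dotted line is the lowest value of the table, 2.49. HOXC6 lies at or near that line in epicardial fat and above 4.7 in every other array, and HOXC4 stays clear of it in every depot.

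HOXC6, a homeodomain factor used from the neck and chest region downwards, was high in 4 depots and at or near the lowest value in epicardial fat. The suffix s of its probe set means that its probes can match more than 1 transcript. In perirenal fat HOXC6 was 7.10, 6.78, 7.06, 6.85 and 6.81 at 28 days, against 6.13, 6.58, 6.41, 6.18 and 5.99 at 7 days. In subcutaneous fat it was 6.77, 6.05, 5.74, 6.65 and 5.89 at 28 days, against 5.78, 5.53, 6.42 and 5.50 at 7 days. These were the depots with the highest means at both ages. Omental fat had 5.90, 5.56, 5.58, 5.57 and 5.69 at 28 days, against 5.44, 5.40, 5.31, 5.52 and 5.34 at 7 days. Sternal fat had 5.92, 5.46, 5.97, 5.50 and 5.35 at 28 days, against 5.25, 4.87, 5.04, 5.57 and 4.75 at 7 days. Both lay in the middle of the range. Epicardial fat had 2.49, 2.50, 2.49, 2.49 and 2.55 at 28 days, against 2.63, 2.49, 2.49, 2.49 and 3.25 at 7 days, and 3 of its 5 arrays were at the lowest value of the table at each age. The lowest array of any other depot, sternal G at 7 days with 4.75, was above the highest epicardial array, G at 7 days with 3.25.

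The mean of HOXC6 was 6.92 ± 0.15 in perirenal fat and 2.50 ± 0.03 in epicardial fat at 28 days (SD, n = 5 each), and 6.26 ± 0.24 in perirenal fat and 2.67 ± 0.33 in epicardial fat at 7 days (SD, n = 5 each). The difference of 4.42 ± 0.16 log2 units at 28 days (SE, adjusted p = 8.4e-15), or 21.4-fold on the array's scale, ranked first of 10273 probe sets in that comparison, and at 7 days the difference was 3.59 ± 0.18 (SE, adjusted p = 1.7e-11), or 12.03-fold. Subcutaneous fat exceeded epicardial fat by 3.72 and 3.14 log2 units at 28 and 7 days, omental fat by 3.16 and 2.73, and sternal fat by 3.14 and 2.43, with adjusted p of at most 2.3e-08 in each. Because epicardial fat was at the bottom of the scale, these differences are lower limits. Among the other depots perirenal fat was higher than omental fat (difference 1.26 at 28 days, adjusted p = 9.4e-05; 0.86 at 7 days, adjusted p = 0.0064) and than sternal fat (1.28 at 28 days, adjusted p = 1.6e-05; 1.16 at 7 days, adjusted p = 0.0014), with every perirenal array above every array of both.

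Perirenal fat also exceeded subcutaneous fat in HOXC6 at 28 days, by 0.70 ± 0.16 (SE, adjusted p = 0.016), where the lowest perirenal array had 6.78 and the highest subcutaneous array 6.77, but not at 7 days (0.45, adjusted p = 0.20), where the groups overlapped. Without subcutaneous replicate J at 28 days the adjusted p became 0.056. Subcutaneous minus sternal fat was 0.58 ± 0.16 at 28 days (SE, adjusted p = 0.018) and 0.71 ± 0.19 at 7 days (SE, adjusted p = 0.077). The mean of 11 skeletal muscle markers lay between 2.73 and 4.08 in subcutaneous fat and between 2.74 and 7.18 in sternal fat at 28 days, and between 2.70 and 7.44 and between 2.67 and 4.21 at 7 days, against at most 2.803 in perirenal and omental fat. At 28 days the sternal arrays with CKM at 12.7, 4.51 and 11.3 had HOXC6 at 5.46, 5.50 and 5.35, against 5.92 and 5.97 in the other 2 arrays. Leaving out the arrays outside epicardial fat with CKM above 4 changed both results, to 0.29 at 28 days (adjusted p = 0.41, 3 subcutaneous and 2 sternal arrays) and to 1.26 at 7 days (adjusted p = 0.017, with 1 subcutaneous array, taken to vary like the other groups). The difference at 28 days was also 0.23 after quantile normalization (adjusted p = 0.49). Omental fat did not differ at the threshold from subcutaneous fat (-0.56 at 28 days, adjusted p = 0.070) or from sternal fat (0.02 at 28 days).

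**Figure D2:**
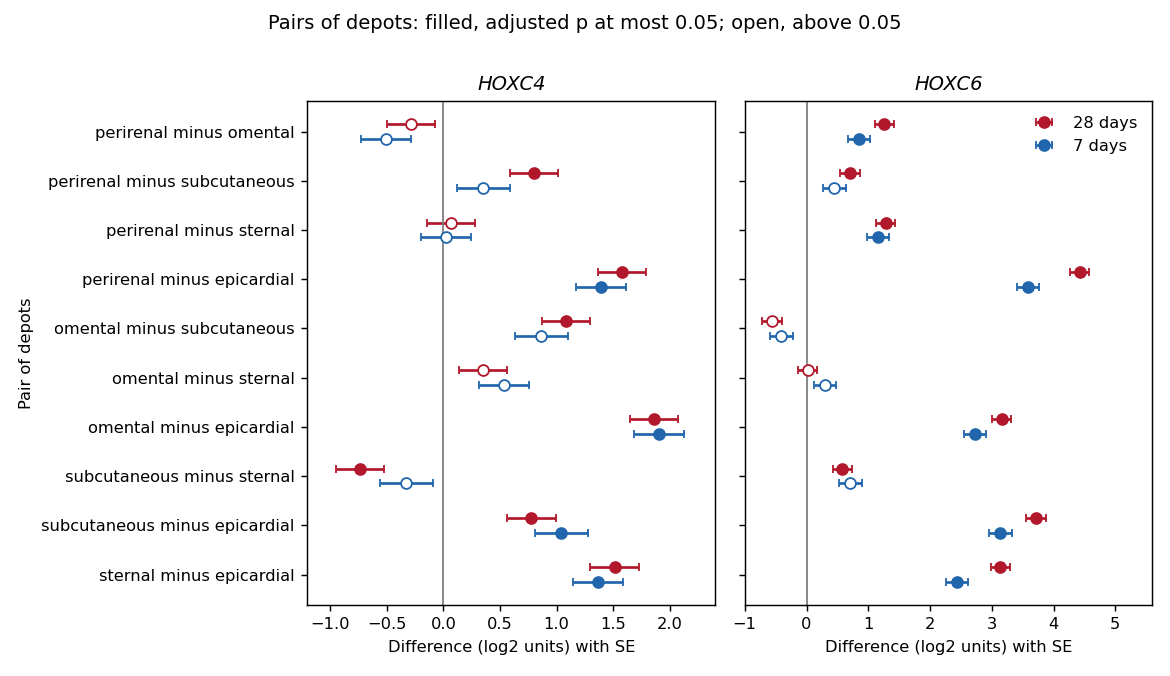
Differences between pairs of depots (x axis, log2 units, with the standard error) for HOXC4 (left) and HOXC6 (right), 28 days in red above 7 days in blue; filled points have an adjusted p of at most 0.05. For HOXC6 the pairs with epicardial fat stand at 2.43 to 4.42, and the subcutaneous minus sternal difference at 28 days is -0.73 for HOXC4 and 0.58 for HOXC6.

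HOXC4, the first gene of the cluster measured here, was above the lowest value in every array and had another order of depots. In omental fat it was 7.87, 7.26, 7.38, 7.42 and 7.47 at 28 days, against 6.24, 7.13, 6.63, 6.39 and 7.10 at 7 days. In perirenal fat it was 7.02, 7.12, 7.25, 6.99 and 7.60 at 28 days, against 6.08, 6.40, 6.33, 5.87 and 6.24 at 7 days. The 28-day arrays of each of these depots were all above its 7-day arrays. Sternal fat had 7.64, 6.55, 7.45, 6.93 and 7.10 at 28 days, against 6.55, 6.18, 6.18, 6.18 and 5.70 at 7 days. Subcutaneous fat had 6.83, 5.84, 5.84, 6.87 and 6.63 at 28 days, against 5.18, 5.47, 6.56 and 6.12 at 7 days. The 3 sternal values of 6.18 were exactly equal, and the subcutaneous arrays were the most widely spread, with an SD of 0.52 at 28 days and 0.62 at 7 days. Epicardial fat had 5.81, 5.28, 5.57, 5.71 and 5.75 at 28 days, against 4.93, 5.04, 4.51, 4.75 and 4.73 at 7 days, the lowest mean of the 5 depots at both ages.

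Against epicardial fat, HOXC4 was higher by 1.86 ± 0.21 log2 units in omental fat at 28 days (SE, adjusted p = 9.5e-06) and by 1.90 ± 0.22 at 7 days (SE, adjusted p = 1.3e-05), 3.62-fold and 3.74-fold. Perirenal fat was higher by 1.57 at 28 days (adjusted p = 0.00013) and 1.39 at 7 days (adjusted p = 0.00071), and sternal fat by 1.51 (adjusted p = 5.3e-05) and 1.37 (adjusted p = 0.00073). Subcutaneous fat was closest to epicardial fat, with 0.78 at 28 days (adjusted p = 0.045) and 1.04 at 7 days (adjusted p = 0.018). The call at 28 days was lost on leaving out any of 17 of the 25 arrays, 1 at a time (adjusted p 0.016 to 0.13). The call at 7 days was lost without subcutaneous F or G (adjusted p up to 0.077). At 28 days subcutaneous fat was below the other 3 depots, with omental minus subcutaneous fat at 1.08 (adjusted p = 0.0065), perirenal minus subcutaneous fat at 0.80 (adjusted p = 0.046) and subcutaneous minus sternal fat at -0.73 (adjusted p = 0.026). The perirenal call was also lost without any of 17 arrays (adjusted p 0.027 to 0.14) and without the arrays outside epicardial fat with CKM above 4 (0.073), the sternal call was lost without any of 4 arrays, sternal I or M or subcutaneous I or J (adjusted p up to 0.081), and at 7 days limma called none of these 3 pairs, of which 1, omental minus subcutaneous fat, had an unadjusted p below 0.05. Omental, perirenal and sternal fat did not differ from each other at the threshold at either age, with differences of up to 0.54. Markers of mesothelium, the lining of the body cavities, were high beside HOXC4 in omental fat (mean of 4 markers 3.42 to 4.14 at 28 days and 2.93 to 3.70 at 7 days, against 2.93 to 3.18 and 2.77 to 3.21 in perirenal fat), but also in epicardial fat at 28 days (3.41 to 3.77), where HOXC4 was lowest, and their part in the result was not tested.

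HOXC4 and HOXC6, which in the human cluster are neighbours but for HOXC5, did not share 1 order of depots. HOXC4 ran omental, perirenal, sternal, subcutaneous, epicardial from the highest mean to the lowest at both ages, and HOXC6 ran perirenal, subcutaneous, omental, sternal, epicardial, also at both ages. At 7 days subcutaneous A, E and G had CKM at 12.9, 6.35 and 11.7 and HOXC4 at 5.18, 5.47 and 6.12. Subcutaneous F, with CKM at 2.77, had HOXC4 at 6.56, above every perirenal and sternal array of that age. The place of subcutaneous fat in the HOXC4 order at 7 days is therefore uncertain, and the part of muscle RNA in it was not tested. At 28 days subcutaneous fat was below sternal fat in HOXC4 and above it in HOXC6, each past the threshold over all arrays and each lost under alternatives given above. The HOXC6 value minus the HOXC4 value of the same array describes this, although its own level depends on how well both probe sets bind. The share of other probe set pairs that lie apart in this way was not counted, and the difference only restates the 2 orders. At 28 days it lay between -0.79 and 0.09 in perirenal fat and between -0.74 and 0.21 in subcutaneous fat, while it lay between -1.96 and -1.71 in omental fat and between -1.75 and -1.09 in sternal fat. At 7 days it lay between -0.25 and 0.31 in perirenal fat and between -0.62 and 0.60 in subcutaneous fat, against -1.76 to -0.80 in omental fat and -1.31 to -0.61 in sternal fat. Perirenal and subcutaneous arrays shared 1 range and omental and sternal arrays another, which did not overlap at 28 days and met at 7 days only in sternal F and subcutaneous G. The sternal arrays with high CKM at 28 days, J and O, were at the ends of the sternal range. Over all 49 arrays HOXC4 and HOXC6 correlated with r = 0.70, and over the 39 arrays outside epicardial fat with r = 0.27, across depots and ages that both genes differ in.

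Epicardial fat was the one depot in which every array but 1 carried heart muscle RNA. Replicate I at 28 days had a mean of 3.11 over the 7 heart muscle markers and CKM at 2.76, against 7.01 to 8.77 and 6.82 to 10.5 in the other 4 epicardial arrays of that age. In replicate I HOXC6 was 2.49, the lowest value of the table, and HOXC4 was 5.81, the highest epicardial value of that age. Subcutaneous replicate A at 7 days had a heart muscle marker mean of 6.56, with CKM at 12.9, and HOXC6 at 5.78. Its skeletal muscle marker mean was 7.44. Of its heart muscle markers MYL2 was 10.9 and MYH7 8.70, but TNNI3 was 3.13, against 8.51 to 11.75 in the epicardial arrays of that age. Its marker mean therefore does not show heart muscle RNA. Replicates I and A are 1 array each, and the part of heart muscle RNA in the low HOXC6 of epicardial fat was not tested.

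**Figure D3:**
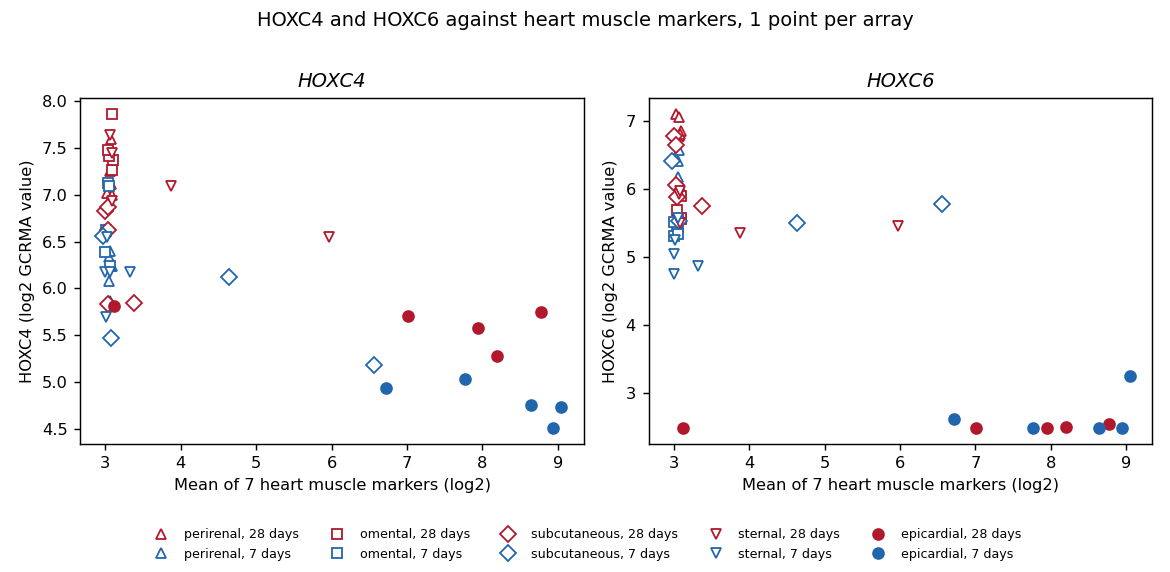
HOXC4 (left) and HOXC6 (right) on the y axis against the mean of 7 heart muscle markers on the x axis, both as log2 values, 1 point per array; filled circles are epicardial fat and open symbols the other depots, red at 28 days and blue at 7 days. The epicardial array at the far left, replicate I at 28 days with a marker mean of 3.11, has HOXC6 at 2.49 and HOXC4 at 5.81.

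HOXC8, a factor of the trunk, was low everywhere and stood out in perirenal fat. Perirenal arrays had 2.71, 2.71, 3.21, 2.997 and 2.86 at 28 days, against 3.26, 3.30, 3.31, 2.70 and 3.67 at 7 days. Outside perirenal fat HOXC8 lay between 2.50 and 2.97 at 28 days, with its highest value in subcutaneous replicate M, and between 2.50 and 2.92 at 7 days. At 7 days 4 of the 5 perirenal arrays were above every other array, and replicate D, at 2.70, lay within the range of the others. Perirenal fat was higher at 7 days than omental (0.66), subcutaneous (0.62), sternal (0.58) and epicardial fat (0.67), with adjusted p of 0.0016, 0.0050, 0.0097 and 0.0017. At 28 days it was higher than omental (0.28, adjusted p = 0.034), sternal (0.31, adjusted p = 0.0060) and epicardial fat (0.31, adjusted p = 0.020), and not than subcutaneous fat. The comparison with omental fat lost its call without any of 8 arrays (adjusted p up to 0.099), and that with epicardial fat without any of 3 (adjusted p up to 0.065). Without the arrays outside epicardial fat with CKM above 4 the adjusted p became 0.054 for omental and 0.072 for sternal fat at 28 days, and 0.24 for subcutaneous fat (1 array, taken to vary like the other groups) and 0.055 for sternal fat at 7 days. In fits of the 2 depots of a pair alone no HOXC8 call held (adjusted p 0.059 to 0.24).

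HOXC10, which lies towards the tail end of the cluster and in mammals is active in the hindlimb region, was high in some arrays of perirenal and subcutaneous fat. Perirenal arrays had 3.22, 3.36, 2.75, 3.41 and 3.29 at 28 days, against 2.76, 3.17, 2.77, 3.34 and 2.75 at 7 days. Subcutaneous arrays had 2.82, 3.45, 2.78, 3.16 and 2.75 at 28 days, against 3.004, 2.75, 2.75 and 3.19 at 7 days. In both depots arrays near 3.2 and arrays near the common low value of 2.75 stood side by side. In omental, sternal and epicardial fat no array passed 2.797 at 28 days or 2.75 at 7 days. Perirenal fat at 28 days was higher than omental (0.45, adjusted p = 0.024), sternal (0.47, adjusted p = 0.0061) and epicardial fat (0.45, adjusted p = 0.032). The omental call was lost without any of 6 arrays (adjusted p up to 0.080) and the epicardial call without any of 8 (adjusted p up to 0.10). Quantile normalization took the sternal difference to 0.34 (adjusted p = 0.051). At 7 days limma called no pair, and 4 of 10 had an unadjusted p below 0.05. Leaving out the arrays outside epicardial fat with CKM above 4 gave adjusted p of 0.052, 0.091 and 0.067 for these 3 pairs. Within perirenal fat HOXC8 and HOXC10 ran against each other in 2 arrays, K at 28 days with the highest HOXC8 and the lowest HOXC10 of its group, and D at 7 days with the lowest HOXC8 and the highest HOXC10. Over all arrays the deviations of these genes from their group means correlated with r = -0.40.

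HOXC11, the last gene of the cluster measured, lay between 3.24 and 4.28 at 28 days and between 2.96 and 4.42 at 7 days. It had the same value, 3.692, in 8 of the 49 arrays, so its probe set may not resolve small differences. No pair of depots passed the threshold at either age by limma, and at an unadjusted p below 0.05 there was 1, omental minus epicardial fat at 28 days. The widest difference at 28 days was omental minus epicardial fat, 0.41 ± 0.15 (SE, adjusted p = 0.15), and at 7 days perirenal minus subcutaneous fat, 0.37 (adjusted p = 0.32).

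Counted over the 5 members, perirenal fat was higher than epicardial fat in 4 at 28 days (HOXC11 did not pass), where 1.10% of all probe sets were called higher, and in 3 at 7 days, where 1.13% were. In the 3 other pairs with epicardial fat the members called were HOXC4 and HOXC6, 2 of 5 each time. The background at 28 days was 1.97% for omental, 1.47% for subcutaneous and 0.604% for sternal fat, and at 7 days it was 0.818%, 0.672% and 0.691%. Perirenal fat was higher than omental fat in 3 members at 28 days (background 0.973%) and 2 at 7 days (4.23%), than sternal fat in 3 (12.9%) and 2 (1.78%), and than subcutaneous fat in 2 (1.46%) and 1 (3.18%). Omental fat was higher than subcutaneous fat in 1 member at 28 days (1.35%). Subcutaneous fat was higher than sternal fat at 28 days in HOXC6 (10.9%) and lower in HOXC4 (0.399%).

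Groups that did not overlap were counted in the same way, beside the share of all probe sets that lay apart in that direction. Every perirenal array was above every epicardial array in 3 members at 28 days (HOXC4, HOXC6 and HOXC8; 1.68%) and in 3 at 7 days (HOXC4, HOXC6 and HOXC10; 1.69%). In HOXC4 and HOXC6 omental fat lay above epicardial fat at both ages (2.63% at 28 days and 0.808% at 7 days), as did sternal fat (0.185% and 0.750%). Subcutaneous fat did so in HOXC4, HOXC6 and HOXC8 at 28 days (1.62%) and in HOXC4 and HOXC6 at 7 days (0.934%). Among the other depots at 28 days, perirenal fat lay above omental and sternal fat in HOXC6 and HOXC8 (1.66% and 10.5%) and above subcutaneous fat in HOXC4 and HOXC6 (1.69%). Omental fat lay above subcutaneous fat in HOXC4 (1.71%) and below it in HOXC8 (0.934%), and subcutaneous above sternal fat in HOXC8 (6.81%). At 7 days perirenal fat lay above omental fat in HOXC6, HOXC8 and HOXC10 (5.05%), above sternal fat in HOXC6 and HOXC10 (3.85%) and above subcutaneous fat in HOXC8 and HOXC11 (6.08%). The HOXC10 groups at 7 days were apart by 0.0003 only, next to the common low value, and those of HOXC8 by 0.0046 to 0.086 over the ages and pairs.

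The second question was how the members changed between 7 and 28 days of age. By the study's methods more tissue went into each extraction at 28 days than at 7 days, so tissue mass and age cannot be told apart. HOXC4 was higher at 28 days in 4 depots, by 1.01 ± 0.22 log2 units in perirenal fat (SE, adjusted p = 0.0013), 0.98 ± 0.22 in sternal fat (SE, adjusted p = 0.0026), 0.83 ± 0.22 in epicardial fat (SE, adjusted p = 0.015) and 0.79 ± 0.22 in omental fat (SE, adjusted p = 0.011), or 2.02-fold to 1.72-fold. In subcutaneous fat the difference was 0.57 ± 0.23 (SE, adjusted p = 0.12). The 28-day arrays were above all 7-day arrays in perirenal, omental and epicardial fat, as they were for 6.32%, 11.2% and 3.87% of all probe sets, and in sternal fat 1 array of 28 days, J, lay within the 7-day range. The median over all probe sets moved by between -0.004 and 0.061 log2 units in these comparisons. The epicardial call was lost without replicate D at 7 days (adjusted p = 0.051), and quantile normalization took the omental difference to 0.60 (adjusted p = 0.082). The change did not differ between depots at the threshold (F test, adjusted p = 0.81). Of 10 fibroblast and adipocyte progenitor markers, 2 were called higher at 28 days in perirenal fat (6.23% of all probe sets were) and 3 in omental fat (13.5%). In subcutaneous fat 3 were called higher (7.68%), in sternal fat 5 (2.47%) and in epicardial fat 1 (4.21%), which is near that share. None was called lower, and none was lower at an unadjusted p below 0.05 either. At most 400 of 10273 probe sets were called lower in a depot, in sternal fat, so none of 10 called lower is near the background. The mean of the 10 markers was 5.78 to 6.51 at 28 days against 5.32 to 5.67 at 7 days in sternal fat. In perirenal fat the ages overlapped, with 5.33 to 5.81 against 5.2003 to 5.62. The part of these markers in the HOXC4 difference was not tested.

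HOXC6 was higher at 28 days in perirenal fat, by 0.66 ± 0.17 (SE, adjusted p = 0.0074), and in sternal fat, by 0.54 ± 0.17 (SE, adjusted p = 0.045), a call that was lost without any of 13 of the 49 arrays (adjusted p 0.014 to 0.15). The differences were 0.41 in subcutaneous fat (adjusted p = 0.16) and 0.26 in omental fat (adjusted p = 0.36). In omental fat the 28-day arrays lay above the 7-day arrays, as they did for 11.2% of all probe sets. In epicardial fat, where both ages were at the bottom of the scale, the difference was -0.17. The F test of the difference between depots gave adjusted p = 0.097 for HOXC6, and 0.014 without the arrays outside epicardial fat with CKM above 4. HOXC8 was lower at 28 days in perirenal fat (28 minus 7 days, -0.35 ± 0.10, SE, adjusted p = 0.015), and in subcutaneous fat its 28-day arrays lay above the 7-day arrays (7.02% of all probe sets did) without passing the test. Without perirenal replicates I or J at 28 days, or G at 7 days, the perirenal call was lost (adjusted p up to 0.11). Brown adipocyte markers moved with it in perirenal fat, where the mean of 3 markers was 3.03 to 3.69 at 28 days against 4.75 to 5.90 at 7 days and 2 of the 3 were called lower (3.09% of all probe sets were). The mean was also lower at 28 days in sternal fat (2.81 to 3.03, against 4.23 to 4.77) and in epicardial fat (3.25 to 3.985, against 4.13 to 4.90). HOXC8 differed by -0.07 in sternal and 0.01 in epicardial fat without passing, and the markers' part in the HOXC8 difference was not tested. HOXC10 and HOXC11 passed in no depot, the HOXC10 difference in perirenal fat being 0.25 (adjusted p = 0.16), the 1 of these 10 with an unadjusted p below 0.05. In perirenal fat 2 members were called higher and 1 lower at 28 days, with 6.23% and 3.09% of all probe sets. In sternal fat 2 were higher (2.47%), in omental fat 1 (13.5%) and in epicardial fat 1 (4.21%), and in subcutaneous fat none passed (7.68% called higher, 1.57% lower; HOXC4 and HOXC6 had unadjusted p of 0.019 and 0.027). In the depot by age test of limma no member passed, against 9.17% of all probe sets, and 2 (HOXC6 and HOXC8) had an unadjusted p below 0.05.

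**Figure D4:**
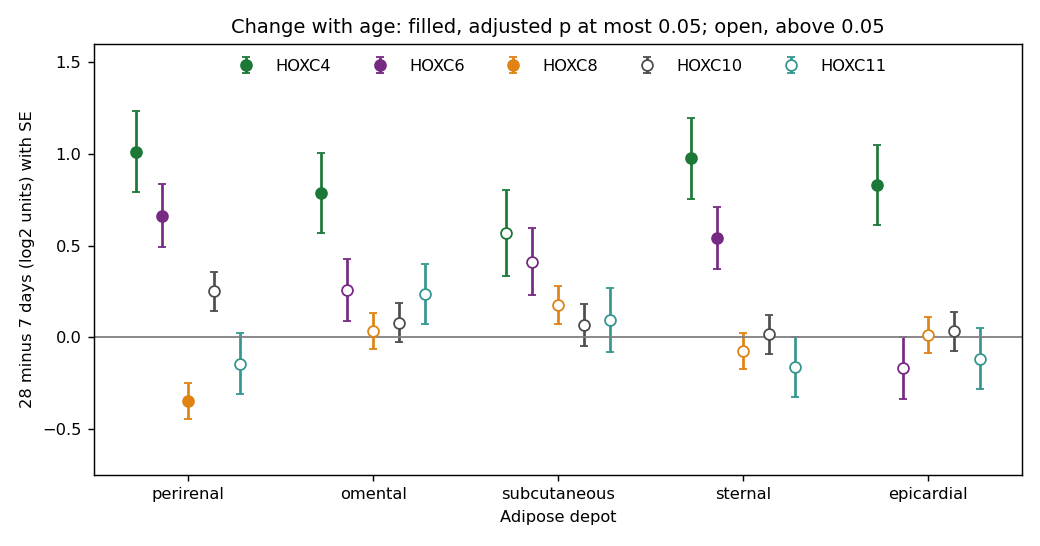
Differences between 28 and 7 days (y axis, log2 units, with the standard error) for the 5 HOXC probe sets in each depot along the x axis; filled points have an adjusted p of at most 0.05. HOXC4 is above 0 in every depot, from 0.57 in subcutaneous to 1.01 in perirenal fat, and HOXC8 is the one filled point below 0, at -0.35 in perirenal fat.

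The HOXA, HOXB and HOXD probe sets, 14 in all with 3 of them for antisense RNAs, were set beside the members. The depots were taken in the order perirenal, omental, subcutaneous, sternal and epicardial. Limma called none of the 14 lower in the earlier depot of any of the 20 pairs. At an unadjusted p below 0.05 there was 1 in each of 5 pairs. Of all 10273 probe sets, 1191 were called lower in sternal than in epicardial fat at 28 days. In every other pair between 7 and 345 were, so none of 14 is near the background there. At 28 days perirenal fat exceeded sternal fat in 8 (median difference 0.47, against 0.06 over all probe sets, of which 12.9% were called higher), omental exceeded epicardial fat in 6 (0.31, against 0.007 and 1.97%) and perirenal exceeded epicardial fat in 5 (0.52, against 0.002 and 1.10%), while subcutaneous and sternal fat exceeded it in 1 each, HOXB6 (1.47% and 0.604%). HOXB6 shared the low level in epicardial fat, with means of 2.68 at 28 days and 2.73 at 7 days. Its order above that was another than that of HOXC6: at 28 days it averaged 6.67 in perirenal and in omental fat, 4.57 in sternal fat and 4.05 in subcutaneous fat. Perirenal minus subcutaneous fat was 2.62 for HOXB6 at 28 days (adjusted p = 2.3e-05), against 0.70 for HOXC6. HOXB3, HOXB7 and HOXB8 were also higher in perirenal than in subcutaneous fat at 28 days, by 1.26, 0.93 and 1.82. With age, HOXB3 was higher at 28 days by 1.28 in perirenal and 1.13 in omental fat, and HOXB8 by 1.42 and 1.25. In sternal fat none of the 14 was called higher at 28 days (1 at an unadjusted p below 0.05). There 2.47% of all probe sets were called higher, so none of 14 is near the background.

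**Figure D5:**
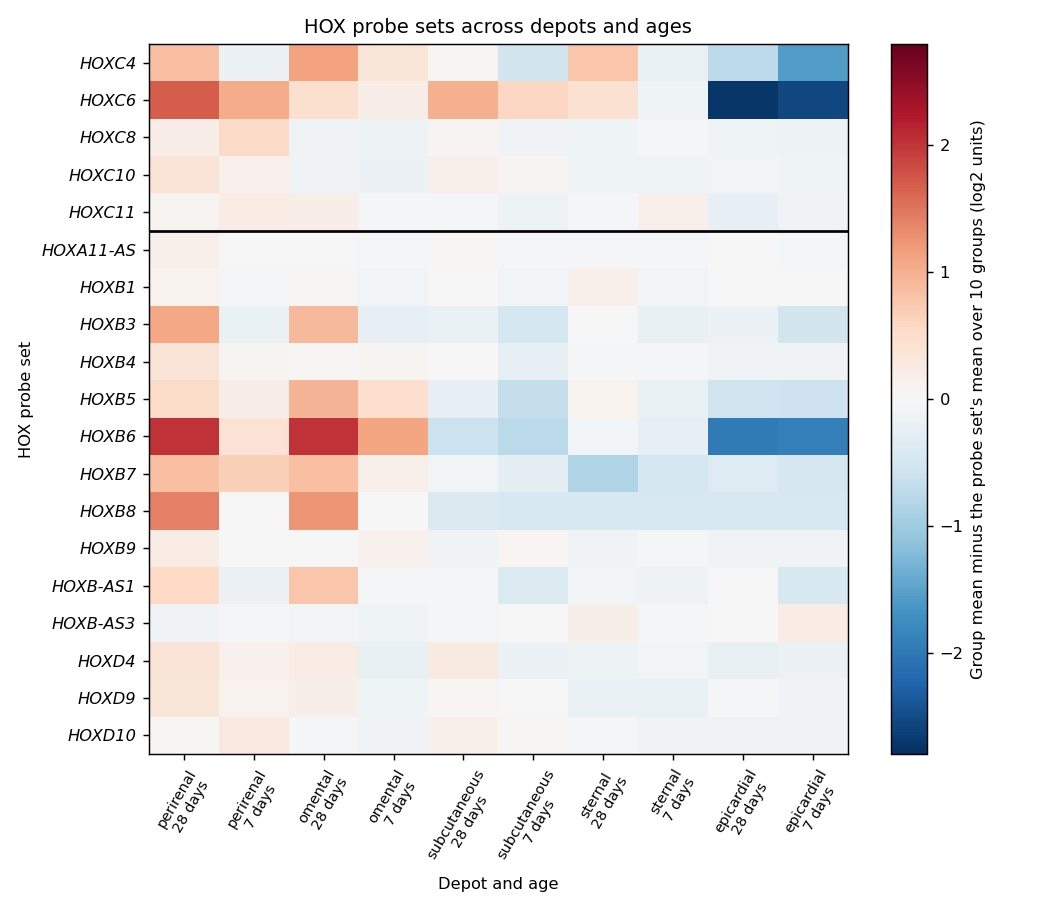
Mean of each group minus the mean of the probe set over the 10 groups, in log2 units (colour, red above and blue below), for the 5 HOXC probe sets (above the line) and the 14 HOXA, HOXB and HOXD probe sets (below it), with depots along the x axis and 28 days left of 7 days. The darkest blue cells are HOXC6 and HOXB6 in epicardial fat, and subcutaneous fat is red for HOXC6 and blue for HOXB6.

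HOX proteins bind DNA together with TALE homeodomain proteins, the MEIS, PBX and PKNOX families, of which 7 were measured. At 28 days 5 of the 7 were lower in sternal than in epicardial fat (median -0.42, against -0.06 over all probe sets, of which 11.6% were lower), led by MEIS2 (-1.79), and 2 were higher in omental than in epicardial fat (1.97% of all probe sets), MEIS1 (2.07) and PBX3 (0.48). MEIS2 was lower in perirenal than in epicardial fat at 28 days (-1.09, adjusted p = 0.00013) and at 7 days (-1.60, adjusted p = 0.00042), the reverse of HOXC4 and HOXC6. In omental fat, where HOXC4 was highest, MEIS1 exceeded its level in subcutaneous fat by 2.06 at 28 days and 2.63 at 7 days.

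The genes with the pattern most like each member were found by Pearson's r over the 49 arrays, which share depots and ages, so r is a description. For HOXC4 they were HOXB6 (r = 0.79), the poly(A)-binding protein genes PABPC1 (0.78) and PABPC3 (0.76), which are close paralogues, the zinc finger genes ZNF503 (0.76) and ZNF423 (0.72), and SKAP2 (0.71). Outside epicardial fat r stayed at 0.74 for PABPC1 and fell to 0.45 for SKAP2. For HOXC6 they were HOXB6 (0.72), HOXC4 (0.70), the growth hormone receptor gene GHR (0.69), SKAP2 (0.68), YWHAG (0.64) and CEBPB (0.63), a factor of early adipocyte differentiation. The HOXC6 list depended on epicardial fat, since none of its 6 genes stayed among the 6 closest outside it. There r was 0.28 for HOXB6 and -0.00375 for SKAP2 but 0.64 for GHR and 0.68 for CEBPB. For the low members the closest were TMEM107, TSACC, SLC29A2, LGALS1, TALDO1 and PCOLCE-AS1 for HOXC8 (0.68 to 0.72), CSRNP3, IL18RAP, KAT2B, SPATA16, PARL and BAG2 for HOXC10 (0.58 to 0.68), and GPHN, SLC4A4, YWHAG, SKAP2, DHRS7 and PLAAT3 for HOXC11 (0.54 to 0.58). Among the 6 closest outside epicardial fat there remained 2 for HOXC4, 1 for HOXC8, 3 for HOXC10 and none for HOXC11.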

How the data were processed

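RNA of 5 sheep adipose depots at 28 and 7 days of age was measured on 49 arrays. The deposited log2 values came from the authors' run of GCRMA (affy package), a method that removes background by probe sequence, normalizes the arrays and gives 1 value per probe set. Its version is not given in the sources used here, and the table holds fewer probe sets than such an array. A low value can mean weak binding to the human probes or low expression. The number of arrays limits the precision. Of 10273 probe sets, 9780 have 1 symbol in the platform annotation, 6 several and 487 none.

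The deposited values were fitted with limma 3.58.1 (R 4.3.3) with moderated variances: a model of the 5 depots at each age, and for age a model of all 10 groups. The p-values were adjusted after Benjamini and Hochberg over 10273 probe sets within each comparison, with a threshold of 0.05. The procedure was tested on simulated data. No pair of arrays correlated above 0.990, so none was counted as a repeat.

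The members and the lists (other HOX genes, TALE cofactors, Polycomb and trithorax regulators, flanking genes, regional identity factors, and markers of adipocytes, heart muscle, skeletal muscle, mesothelium, fibroblasts and adipocyte progenitors, and brown adipocytes) were chosen with earlier results of these data known. Named were all members, the 6 single-symbol probe sets most correlated with each, and up to 4 called list members with the largest difference in a comparison. Alternatives were the replicate number as a block, quantile normalization, a mean of at least 4, a variance trend, robust variances, other fits, arrays with CKM above 4 left out, and each array left out in turn. Litter, animal and diet were not fitted.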

Additional observations from a re-analysis of the deposited data

Results flagged for a closer look

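In 6 of the 50 combinations of HOXC gene, depot and age, 1 array lay far from the others of its group by Dixon's test. For normally distributed values chance gives about 1 in 20. Groups of equal or near-equal low values do not meet that condition, so the count cannot be read as an excess. HOXC6 in epicardial fat was 3.2514 in replicate G at 7 days, against 2.49 to 2.63 in the other 4 arrays, and 2.547 in replicate O at 28 days, against 2.49 to 2.50. HOXC11 in perirenal fat was 4.2559 in replicate J at 28 days, against 3.69 to 3.84. HOXC8 was 2.7565 in epicardial replicate A at 7 days, against 2.50 to 2.56, and 2.5539 in omental replicate O at 28 days, against 2.64 in the others. HOXC10 was 2.7475 in omental replicate I at 28 days, where the other 4 arrays shared the value 2.7542. The last 2, and HOXC6 in replicate O, are steps of under 0.1 between near-equal low values.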

How the results depend on the processing

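Without arrays outside epicardial fat with CKM above 4, the F test over depots at 28 days gave adjusted p = 0.05025 for HOXC10, and without every such array (chosen after seeing the data, with 1 epicardial array taken to vary like the other groups) 0.19 for HOXC10 and 0.159 for HOXC8, while HOXC4 subcutaneous minus epicardial fat went to 0.62 (adjusted p = 0.67). The depot by age test of HOXC6 passed without such arrays (0.01383), with probe sets of mean at least 4 (0.0406) and with the replicate block as a fixed effect (0.02215), which also took HOXC8 to 0.01537. Changes with age lost their call for HOXC4 in omental fat after quantile normalization (0.60), for HOXC4 (0.98, adjusted p = 0.086) and HOXC6 (0.54, adjusted p = 0.30) in sternal fat and HOXC8 in perirenal fat (-0.35, adjusted p = 0.31) in a fit of the depot's 2 ages alone, and for HOXC6 in sternal fat with a variance trend (0.54, adjusted p = 0.051). The correlation of HOXC6 with SKAP2 turned to -0.00375 outside epicardial fat. The cause of these changes was not tested.

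Over the arrays left out in turn, the change with age ran from 0.76 to 0.92 for HOXC4 in epicardial and from 0.35 to 0.81 in subcutaneous fat, from 0.46 to 0.66 for HOXC6 in sternal and from 0.28 to 0.62 in subcutaneous fat, from -0.49 to -0.24 for HOXC8 and from 0.20 to 0.36 for HOXC10 in perirenal fat, and the depot by age adjusted p from 0.043 to 0.22 for HOXC6 and from 0.0014 to 0.18 for HOXC8. HOXC4 and HOXC6 in subcutaneous fat and HOXC6 by depot and age passed without subcutaneous replicate F at 7 days, and HOXC10 in perirenal fat (adjusted p = 0.017 at the lowest) and HOXC8 by depot and age without perirenal replicates K at 28 days or D at 7 days.

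With the replicate block as a fixed effect 106 values of the members kept their call, 4 gained it and 5 lost it, all at 28 days: HOXC4 perirenal minus subcutaneous (0.89, adjusted p = 0.059) and subcutaneous minus epicardial fat (0.62, adjusted p = 0.25), HOXC6 subcutaneous minus sternal fat (0.42, adjusted p = 0.0585), and HOXC8 perirenal minus omental (0.19, adjusted p = 0.13) and perirenal minus epicardial fat (0.21, adjusted p = 0.15). After quantile normalization HOXC8 perirenal minus sternal fat at 7 days had adjusted p = 0.05008. Arrays of 1 number had a median correlation of deviations of 0.057 over 39 pairs at 28 days and 0.046 over 33 at 7 days. Arrays of different numbers had -0.009 over 211 pairs and -0.011 over 197. Correlations above 0.1 occurred in 12 of the 39 pairs of 1 number at 28 days, against 12 of the 211. At 7 days they occurred in 6 of the 33, against 15 of the 197. Arrays of 1 number were slightly more alike, and the main fits leave this pairing out. With the block as a random effect all 140 values kept their call. A fixed block could not be fitted for 28 against 7 days, since no number occurs at both ages. In fits of the 2 depots of a pair alone, with fewer arrays behind the spread, 84 values kept their call and 16 lost it: every HOXC8 call (adjusted p 0.059 to 0.24), the HOXC4 pairs with subcutaneous fat that had passed (0.11 to 0.27), HOXC6 perirenal minus subcutaneous (0.18) and subcutaneous minus sternal fat (0.21), and HOXC10 perirenal minus omental (0.076) and epicardial fat (0.15). Robust variances changed no call. Only HOXC4 and HOXC6 average at least 4, so that filter gave no value for the others. HOXC8, HOXC10 and HOXC6 in epicardial fat lie near the lowest signal, where small differences cannot be resolved. HOXC11 lay higher but carried the value 3.692 in 8 of the 49 arrays, and may not resolve them either.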

Other observations

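Polycomb and trithorax proteins keep HOX clusters closed or open. Of 23 measured, limma called none lower at 28 days than at 7 days in any depot (1 in subcutaneous fat at an unadjusted p below 0.05), while 9 were higher in perirenal fat (median difference 0.31), 5 in omental fat (0.19), 6 in subcutaneous fat (0.31), 4 in sternal fat (0.09) and 9 in epicardial fat (0.28). The medians over all probe sets were between -0.004 and 0.061, and the shares of all probe sets called higher were 6.23% in perirenal, 13.5% in omental, 7.68% in subcutaneous, 2.47% in sternal and 4.21% in epicardial fat. Of all 10273 probe sets, 317 were called lower in perirenal, 106 in omental, 161 in subcutaneous, 400 in sternal and 167 in epicardial fat. That none of 23 was called lower is therefore near the background. KMT2D, a histone H3 methyltransferase, was higher by 1.00 in perirenal, 1.02 in omental, 1.15 in sternal and 1.03 in epicardial fat. KDM6B, a histone H3 demethylase that acts against Polycomb marks, was higher by 1.64 in omental and 1.69 in subcutaneous fat.

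Of the 6 measured genes that flank the HOXC cluster in human or sheep, limma called none higher in any depot than in epicardial fat at either age, and at an unadjusted p below 0.05 there was 1 in each of 2 of these 8 comparisons. With 0.604% to 1.97% of all probe sets called higher there, a count of 0 of 6 is near the background. With age, ATP5MC2, a subunit of mitochondrial ATP synthase beyond HOXC13 in sheep, was lower at 28 days in perirenal (-0.82), subcutaneous (-1.08), sternal (-1.02) and epicardial fat (-0.65), where HOXC4 was higher in perirenal, sternal and epicardial fat.

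Of 15 measured factors of regional identity, TCF21, a visceral and epicardial mesenchyme factor, was lower in perirenal than in epicardial fat at 28 days (-2.20) and at 7 days (-2.24), while HOXC6 was higher there. The subcutaneous arrays at 28 days exceeded epicardial fat in ZIC1 (1.57) and IRX5 (1.21) among these factors.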
